A study of Mus musculus with 10 samples.

Results

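The genes described here are 9 genes of the contractile apparatus of muscle, *Tnnt1*, *Ttn*, *Actc1*, *Des*, *Myl1*, *Myl4*, *Mrln*, *Tnnc1* and *Tnni1*, among the 32285 genes counted in single cells of the developing mouse lower jaw and incisor. They were chosen by their measured UMI counts in E11.5 cells with *Myf5*, *Myod1* and *Myog*, and taken here by name, so every difference between E11.5 cell groups is a description and carries no test. The study prepared cells from wild-type NMRI embryos with 10x Genomics 3' libraries, from whole mandibles (E11.5) or from dissected buds of the lower incisor (E14.5, E16.5). No embryo carried a transgene or received a treatment for these libraries. The material came from 8 mandibles at E11.5 and from the buds of 4 mandibles at E14.5, each stage from 3 litters, and from 2 mandibles of 2 litters at E16.5. The 4, 4 and 2 labelled samples cannot be told apart in the deposited matrices, so each stage was 1 sample, no p-value could be computed, and stage, dissected tissue and library cannot be told apart.

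A count is a UMI, a unique molecular identifier that marks 1 captured RNA molecule at its 3' end. Levels are CPM, the UMIs of a gene per 1000000 UMIs summed over a group of cells. Values in parentheses after a level, share or ratio are exact 95% intervals. They cover counting error only, and not the spread between cells or embryos. Cells with at least 700 detected genes and at most 20% mitochondrial UMIs were kept, 6573, 6091 and 4511 at the 3 stages in order of age, with a median depth of 5664, 3471 and 6260 UMIs. Just below this limit, 158 E11.5 cells short of it by at most 50 genes held 13 UMIs of the 9 genes, and 120 cells over it by fewer than 50 genes held 0. Between 13 and 17 barcodes were shared by each pair of stages, and none occurred more than once within a stage.

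Skeletal muscle of the jaw forms from mesoderm of the first branchial arch. Its progenitors switch on the transcription factors *Myf5* and *Myod1*, and *Myog* follows when a cell leaves the cycle and begins to differentiate. The sarcomere, the repeated contractile unit, is built from thin filaments of actin with troponin and tropomyosin, and from thick filaments of myosin with its light chains. Titin spans from the Z disc to the middle of the sarcomere, and desmin filaments tie the Z discs of neighbouring myofibrils together.

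*Actc1* encodes the sarcomeric actin of heart and embryonic skeletal muscle, and *Tnnt1*, *Tnnc1* and *Tnni1* encode the slow-muscle forms of the tropomyosin-binding, calcium-binding and inhibitory subunits of troponin. *Myl1* and *Myl4* encode essential light chains of myosin, of fast muscle and of embryonic and atrial muscle. *Ttn* encodes titin and *Des* desmin. *Mrln* encodes myoregulin, a small membrane protein that inhibits the calcium pump of the sarcoplasmic reticulum, and is therefore not part of the sarcomere itself.

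The start regions of 4 members are shown as examples. *Tnnt1* and *Ttn* were detected widely in cells without a *Myog* UMI, and *Actc1* and *Myl1* were highest in cells with one. Each sequence covers 300 bases around the transcription start given by RefSeq on GRCm38.p6, the build the authors aligned to under its name mm10, and all 4 lie on the minus strand. Capitals mark the E-box CANNTG, which *Myf5*, *Myod1* and *Myog* proteins are known to bind, the MEF2 motif and the CArG box, the site of serum response factor. They are *Tnnt1* at chr7:4515926-4516225, *Ttn* at chr2:76982498-76982797, *Actc1* at chr2:114052826-114053125 and *Myl1* at chr1:66945007-66945306.
Tnnt1: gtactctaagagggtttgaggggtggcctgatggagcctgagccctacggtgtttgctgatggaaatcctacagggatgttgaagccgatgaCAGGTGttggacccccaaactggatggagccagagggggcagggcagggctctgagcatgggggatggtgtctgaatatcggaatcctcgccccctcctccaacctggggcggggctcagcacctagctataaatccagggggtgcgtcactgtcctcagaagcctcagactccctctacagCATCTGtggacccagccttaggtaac
Ttn: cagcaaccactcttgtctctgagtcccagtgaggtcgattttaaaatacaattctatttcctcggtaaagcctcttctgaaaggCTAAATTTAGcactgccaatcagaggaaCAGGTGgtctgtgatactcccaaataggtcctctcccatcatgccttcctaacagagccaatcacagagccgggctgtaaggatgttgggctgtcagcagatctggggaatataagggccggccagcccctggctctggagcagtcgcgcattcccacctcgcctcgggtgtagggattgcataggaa
Actc1: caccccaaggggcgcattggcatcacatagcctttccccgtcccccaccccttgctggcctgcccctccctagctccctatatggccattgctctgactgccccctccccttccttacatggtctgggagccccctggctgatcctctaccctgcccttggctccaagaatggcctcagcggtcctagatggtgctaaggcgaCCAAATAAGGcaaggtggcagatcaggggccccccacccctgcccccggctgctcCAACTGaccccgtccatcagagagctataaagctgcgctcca
Myl1: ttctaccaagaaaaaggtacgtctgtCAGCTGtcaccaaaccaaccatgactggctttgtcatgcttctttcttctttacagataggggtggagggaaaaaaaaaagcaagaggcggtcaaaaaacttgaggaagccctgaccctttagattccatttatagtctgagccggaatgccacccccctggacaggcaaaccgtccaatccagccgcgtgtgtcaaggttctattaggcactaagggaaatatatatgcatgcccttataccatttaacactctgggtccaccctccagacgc
The *Myl1* start used here lies inside the gene, which extends to position 66947932, so it is not the outermost start. The other 5 genes lie at chr1:75360292-75368579 (*Des*), chr10:70204664-70219711 (*Mrln*), chr11:104546017-104587215 (*Myl4*), chr14:31208312-31211729 (*Tnnc1*) and chr1:135783033-135810989 (*Tnni1*), for which RefSeq gives a pair of starts. The *Myl4* window, from 104550413, and the *Tnni1* windows, from 135799171 and 135799261, also lie inside the gene. Their starts are thus not the outermost ones, and the outermost starts were not searched.

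Both strands were searched, and CAGCTG and CACCTG are special cases of CANNTG. An E-box was present in 8 of the 9 members and absent from the *Myl4* window, while 72.3% of all 32851 RefSeq windows of the same length hold at least 1. The form CAGCTG occurred in the windows of *Des*, *Myl1* and *Tnni1*, and in 16.3% of all windows. The form CACCTG, on either strand, occurred in those of *Tnnt1*, *Ttn*, *Mrln* and *Tnni1*, and in 20.2% of all windows. A MEF2 motif, held by 1.86% of all windows, was found in *Ttn*, 166 bases before the start. A CArG box, held by 1.63%, was found in *Actc1*, 47 bases before the start. The sequence TATAAA, in 13.6% of all windows, occurred in *Tnnt1*, *Actc1* and *Myl1*. It lay at -30 in *Tnnt1*, at position 34, past the start, in *Actc1*, and at -95 on the opposite strand in *Myl1*. These are matches of letters and not evidence of binding.

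At E11.5 the transcripts of these genes lay mostly in 1 small group of cells. Of their 1723 UMIs, 69.3% (67.1 to 71.5) were held by a cluster of 119 cells called muscle-like here, which is a small part of the 6573 cells. Their summed level there was 1192 CPM (1125 to 1261), against 11.4 CPM (10.4 to 12.4) in all other E11.5 cells. The cluster was named from the markers *Myf5*, *Myod1*, *Myog*, *Msc*, *Chrna1*, *Cdh15*, *Pax7* and *Mymk*, and the 9 genes and the regulators were left out of the genes used for clustering. A UMI of *Myf5*, *Myod1* or *Myog* was present in 58 of the 119 cells, and 93 of them held at least 2 of the 9 genes. Among the other 6454 cells, 24 did.

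The members differed in how many UMIs they had in this group. *Tnnt1* stood at 554 CPM (509 to 602) in the muscle-like cells and 4.17 CPM (3.60 to 4.80) in the others, and *Ttn* at 261 CPM (231 to 295) and 0.946 CPM (0.687 to 1.27). *Actc1* was at 127 CPM (106 to 151) and 0.258 CPM (0.133 to 0.451), *Mrln* at 129.7 CPM (108 to 154) and 0.602 CPM on 28 UMIs, and *Myl1* at 28.9 CPM (19.4 to 41.6) and 0.0645 CPM (0.0133 to 0.188). *Des* was at 79.8 CPM (63.3 to 99.4) against 3.61 CPM (3.09 to 4.20). These 6 genes were therefore higher per UMI in the muscle-like cells, although most *Des* UMIs lay in other cells, with 80 in the muscle-like cells. *Tnni1*, *Tnnc1* and *Myl4* had only 5, 3 and 3 UMIs in the 119 cells, at 4.99 CPM (1.62 to 11.6), 2.99 CPM and 2.99 CPM (0.617 to 8.75 for both). Most of their E11.5 UMIs, 39, 35 and 6, were scattered over other cells. In the 6489 E11.5 cells without a regulator, 61 of them muscle-like, they were at 0.813 CPM (0.575 to 1.12), 0.749 CPM (0.521 to 1.04) and 0.128 CPM (0.0471 to 0.279). The 2 intervals did not overlap for *Tnni1* and *Myl4*, and did for *Tnnc1*. But 1 muscle-like cell held 3 of the 5 *Tnni1* UMIs and 2 of the 3 *Myl4* UMIs. No difference is therefore read for these genes. Of the 8 members with at least 10 UMIs, 6 lay above a log2 ratio of 1, muscle-like over other cells with 10 CPM added. Over the 15121 genes with that many UMIs, percent called higher was 1.31.

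Part of the 69.3% depends on which cells were put in the cluster. An *Epcam* UMI was present in 11 of the 119 cells and a *Sox10* UMI in 1, and the class with the second highest marker score was epithelium. Without cells holding either UMI the summed level was 1463 CPM and the share 67.3%. Red cells should lack sarcomere transcripts and served as a measure of stray RNA. With a median of 5628 UMIs against 6630 in the muscle-like cells, 2.16% (0.447 to 6.18) of the 139 erythroid cells had a *Tnnt1* UMI and 1.44% (0.175 to 5.10) a *Ttn* UMI, against 83.2% (75.2 to 89.4) and 54.6% (45.2 to 63.8) of the muscle-like cells. After each cell was thinned to 2000 UMIs, which left out 3 muscle-like and 18 erythroid cells, the shares for *Tnnt1* were 63.8% and 1.65%, for *Ttn* 34.5% and 0.826%, for *Mrln* 29.3% and 0.826%, for *Des* 15.5% and 0.826%, and for *Actc1* 6.90% and 0%. Thinned shares of *Myl1*, *Myl4*, *Tnnc1* and *Tnni1* were at 2.59% or lower in the muscle-like cells and at 0% in the erythroid cells. The exact interval for 0 of 121 erythroid cells reaches 3.003%, so for these 4 genes a difference in shares was not detectable at this depth.

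**Figure D1:**
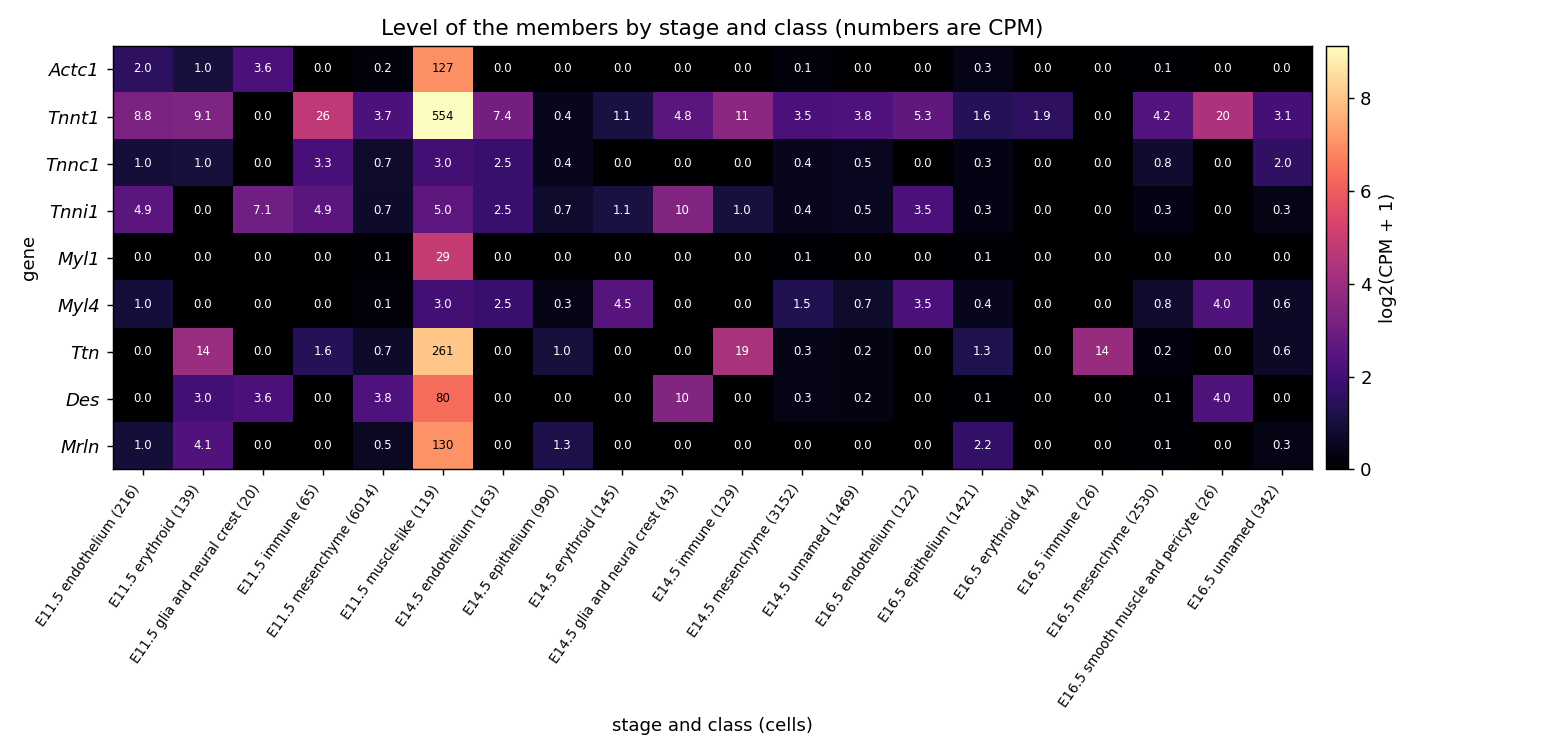
Level of each member (rows, CPM printed, colour log2 of CPM + 1) in every stage and class of cells (columns, number of cells in parentheses). *Tnnt1* (554 CPM), *Ttn* (261 CPM), *Mrln*, *Actc1*, *Des* and *Myl1* are highest in the E11.5 muscle-like cells, and no class of E14.5 or E16.5 comes near those levels.

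Heart muscle shares several of these genes, so its defining markers were read beside them. In the muscle-like cells *Myh6*, *Nppa*, *Nppb*, *Myl7*, *Tbx20* and *Myl2* were at 0, and 2 of the 8 heart markers were detected, *Nkx2-5* with 21 UMIs and *Tnni3* with 3. The summed level of that list ranged from 14.3 CPM in *Myod1*+ *Myog*- cells to 31.8 CPM in *Myog*+ cells. Of 8 markers of smooth muscle and pericytes, *Myh11*, *Cnn1* and *Kcnj8* were at 0 in the muscle-like cells and *Rgs5* and *Actg2* had 1 UMI each. *Acta2*, a smooth muscle actin also made by early skeletal muscle, had 264 UMIs, *Tagln* 37 and *Notch3* 31. Summed, these 8 markers stood at 333 CPM (299 to 371) in the muscle-like cells and 36.0 CPM (34.3 to 37.8) in the other E11.5 cells. The summed level of this list was 299 CPM (230.4 to 382) in *Myf5*-only, 343 CPM (268 to 432) in *Myod1*+ *Myog*- and 1272 CPM (1009 to 1583) in *Myog*+ cells, or 858 CPM without the richest cell, and 70 of its 80 UMIs in *Myog*+ cells were of *Acta2*. Its part in the member levels was not tested.

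To place the members along the start of differentiation, the 119 cells were divided by the regulators they held. *Myog*+ cells had a *Myog* UMI (7 cells), *Myod1*+ *Myog*- cells a *Myod1* but no *Myog* UMI (24 cells), *Myf5*-only cells a *Myf5* UMI alone (27 cells), and 61 cells had none. Their median depths were 7454, 7741, 6109 and 5874 UMIs. A cell without a UMI can still express the gene, so a cell's state can depend on its depth, and an order of states is not an order in time. The summed level of the 9 genes was 765 CPM (691 to 844) in cells without a regulator, 1099 CPM (963 to 1249) in *Myf5*-only cells, 1281 CPM (1133 to 1444) in *Myod1*+ *Myog*- cells and 4706 CPM (4185 to 5274) in *Myog*+ cells. The first value depended on 10 cells with an *Epcam* or *Sox10* UMI, which held 34.1% of the UMIs of the cells without a regulator but 2 of their 394 member UMIs. Without such cells the levels were 1154 CPM (1043 to 1275) in the 51 cells left without a regulator, 1125 CPM (978.5 to 1287) in *Myf5*-only and 1287 CPM (1135 to 1454) in *Myod1*+ *Myog*- cells, and these 3 states did not differ beyond counting error. Levels in cells without a regulator are given below for all 61 cells and read with this limit.

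A single cell carried much of the last value. Counted over the 9 genes, the 7 *Myog*+ cells had 163, 49, 22, 20, 17, 15 and 10 UMIs, at total depths of 5790, 15032, 7454, 6021, 6903, 9308 and 12390 UMIs. The first of these held all 9 genes and had the lowest total depth of the 7. Without it the summed level of the other 6 cells was 2329 CPM (1950 to 2760), still above the intervals of the other 3 states, and that cell alone stood at 28152 CPM (23996 to 32821). In the other states a cell had at most 35 UMIs of the 9 genes without a regulator, 23 in *Myf5*-only cells and 20 in *Myod1*+ *Myog*- cells, with medians of 6, 7 and 10.5. Because of this cell, levels in *Myog*+ cells are given below with it and without it.

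**Figure D2:**
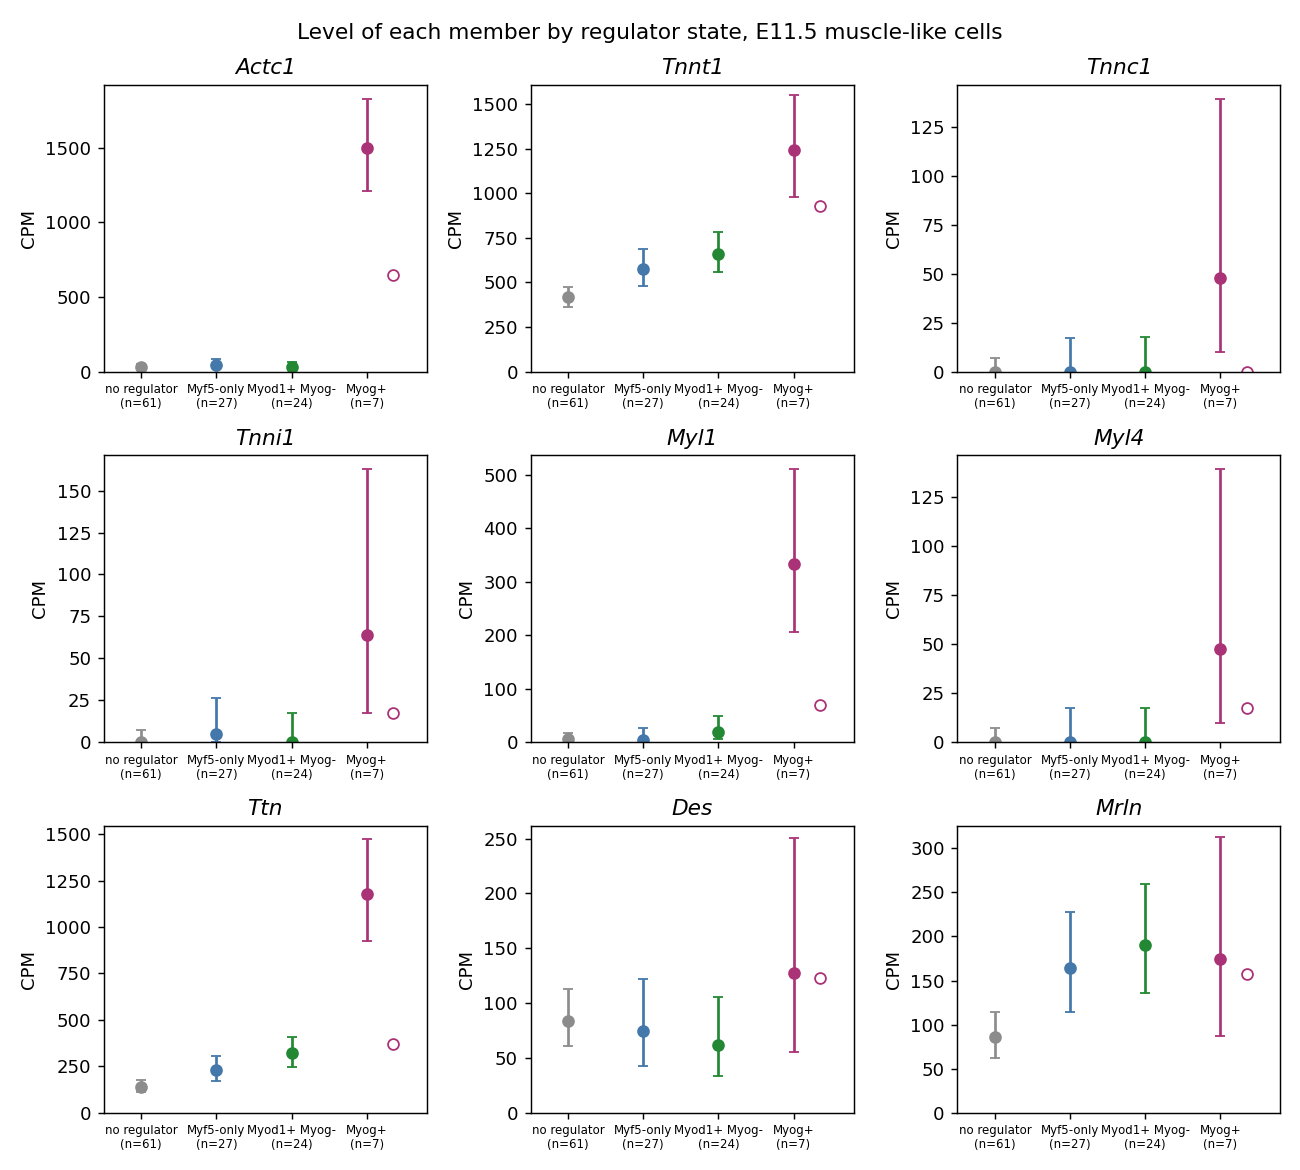
Level of each member in CPM (y axis, 1 panel per gene, each from 0) in the 4 states of the E11.5 muscle-like cells (x axis, n is cells); filled points are summed levels with exact 95% counting intervals, and the open point is the *Myog*+ level without the cell that held 163 of the 296 member UMIs. *Actc1* stands apart in *Myog*+ cells with and without that cell, and *Des* and *Mrln* in neither case. Without that cell *Myl1* rests on 4 UMIs, and the interval of its level overlaps those of *Myf5*-only and *Myod1*+ *Myog*- cells. Its log2 ratio over *Myf5*-only cells was then 2.45 (0.38 to 3.26). The level without a regulator includes 10 cells with an *Epcam* or *Sox10* UMI.

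*Actc1* was concentrated in the *Myog*+ cells. It had 17 UMIs (33.0 CPM, 19.2 to 52.8) in cells without a regulator, 10 (46.8 CPM, 22.4 to 86.0) in *Myf5*-only cells, 6 (28.6 CPM, 10.5 to 62.2) in *Myod1*+ *Myog*- cells and 94 (1494 CPM, 1208 to 1829) in *Myog*+ cells. The first 3 states overlapped and the fourth lay far above them. The 7 *Myog*+ cells had 57, 27, 2, 1, 2, 5 and 0 *Actc1* UMIs, in the cell order given above, so 2 cells held most of the transcripts. The log2 ratio of *Myog*+ over *Myf5*-only cells was 4.73 (3.90 to 5.59) and without the richest cell 3.54 (2.61 to 4.47). *Actc1* was also present at low counts in cells without a *Myog* UMI, in 5 of 27 *Myf5*-only cells and 6 of 24 *Myod1*+ *Myog*- cells. The CArG box printed above lies in the start region of this gene, and its part in these levels was not tested.

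*Tnnt1* was the member seen in the most cells and was also high in cells without a *Myog* UMI. It was detected in 44 of 61 cells without a regulator, 24 of 27 *Myf5*-only cells and all cells of the other 2 states. Its level was 417 CPM (363 to 477), 575 CPM (478 to 686), 662 CPM (557 to 782) and 1240.1 CPM (980.2 to 1548) in cells without a regulator, *Myf5*-only, *Myod1*+ *Myog*- and *Myog*+ cells. The intervals of the *Myf5*-only and *Myod1*+ *Myog*- cells overlapped, and the *Myog*+ interval lay above all others. The lower level without a regulator was not seen once cells with an *Epcam* or *Sox10* UMI were left out, when it was 630.2 CPM (549 to 721) against 599.5 CPM (494 to 721) in *Myf5*-only cells. The 7 *Myog*+ cells had 25, 8, 13, 10, 9, 8 and 5 UMIs of *Tnnt1*, a narrower spread than for *Actc1*. The log2 ratio over *Myf5*-only cells was 1.10 (0.67 to 1.51), and 0.68 (0.19 to 1.15) without the richest cell. Over all E11.5 cells, whatever their cluster, it was 0.61.

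The other 2 troponin genes were nearly silent. *Tnnc1* had 3 UMIs in the 119 cells, all in the richest *Myog*+ cell. *Tnni1* had 5, of which 3 were in that cell, 1 in the *Myog*+ cell with 49 member UMIs and 1 in a *Myf5*-only cell that held 6 of the 9 genes. The exact intervals of *Tnnc1*, at 0 UMIs, reach 17.2 CPM in the 27 *Myf5*-only cells and 17.6 CPM in the 24 *Myod1*+ *Myog*- cells. No ratio is given for *Tnnc1*, since both states were at or under 3 counts, and the *Tnni1* log2 ratio of 2.33 (0.28 to 3.14) compares 4 UMIs with 1.

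Of the myosin light chain genes, *Myl1* followed the pattern of *Actc1* at lower counts. It had 3 UMIs (5.82 CPM, 1.20 to 17.0) in cells without a regulator, 1 (4.68 CPM, 0.118 to 26.0) in *Myf5*-only cells, 4 (19.1 CPM, 5.19 to 48.8) in *Myod1*+ *Myog*- cells and 21 (334 CPM, 207 to 510.4) in *Myog*+ cells. In *Myog*+ cells 17 of the 21 lay in the richest cell. The other 6 cells had 4 UMIs in 3 cells, 1, 2 and 1. The log2 ratio over *Myf5*-only cells was 4.55 (3.06 to 5.15), and 2.45 (0.38 to 3.26) without that cell, when its level of 70.0 CPM (19.1 to 179) overlapped with those of the *Myf5*-only and *Myod1*+ *Myog*- cells. *Myl4* had 3 UMIs in the 119 cells, 2 in the richest cell and 1 in the *Myog*+ cell with the next most member UMIs, and 0 in the other 3 states. Both light chains were thus found together in those 2 cells.

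*Ttn* was detected in most *Myf5*-only cells, and the size of its contrast depended on 1 cell. Its level was 139.7 CPM (109 to 176) in cells without a regulator, 229 CPM (169 to 303) in *Myf5*-only cells, 319 CPM (247 to 405) in *Myod1*+ *Myog*- cells and 1177 CPM (924 to 1477) in *Myog*+ cells. The 7 *Myog*+ cells had 53, 10, 3, 5, 2, 0 and 1 *Ttn* UMIs. The log2 ratio over *Myf5*-only cells was 2.31 (1.78 to 2.84) with all 7 cells and 0.66 (-0.12 to 1.40) without the first. The second interval includes 0 but leaves room for a rise. That ratio rests on 21 UMIs in the other 6 cells. It lies beside the 0.68 of *Tnnt1* in the same 6 cells, which rests on 53 UMIs. The MEF2 motif printed above lies in the start region of this gene, and its part in these levels was not tested.

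*Des* and *Mrln* showed no contrast between the regulator states. *Des* was at 83.4 CPM (60.4 to 112), 74.8 CPM (42.8 to 121), 61.9 CPM (33.0 to 106) and 127 CPM (54.9 to 251) in cells without a regulator, *Myf5*-only, *Myod1*+ *Myog*- and *Myog*+ cells, and all 4 intervals overlapped. *Mrln* was at 85.4 CPM (62.0 to 115) in cells without a regulator, 164 CPM (114 to 228) in *Myf5*-only, 191 CPM (136 to 259) in *Myod1*+ *Myog*- and 175 CPM (87.3 to 313) in *Myog*+ cells. The 3 states with a regulator overlapped for *Mrln*. The log2 ratio of *Myog*+ over *Myf5*-only cells was 0.69 (-0.59 to 1.88) for *Des* and 0.09 (-0.96 to 1.05) for *Mrln*. Both intervals include 0 and rest on 8 and 11 UMIs in *Myog*+ cells, so they leave room for a fall or a rise. The added 10 CPM draws the bounds toward 0, so they do not limit the size of a change.

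**Figure D3:**
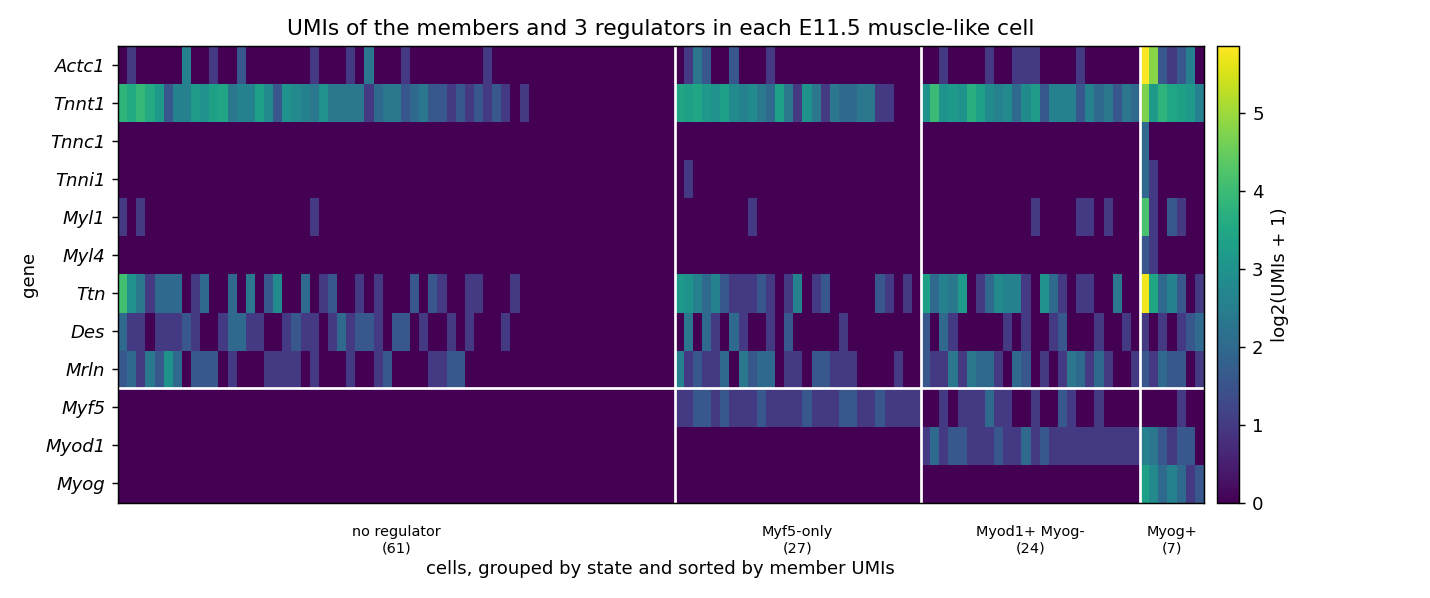
UMIs of the 9 members and of *Myf5*, *Myod1* and *Myog* (rows, colour log2 of UMIs + 1) in each of the 119 E11.5 muscle-like cells (columns, by state and then by member UMIs). *Tnnt1*, *Ttn*, *Des* and *Mrln* extend over all 4 states, and *Tnnc1* and *Myl4* are seen only in the first *Myog*+ cells.

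Read together, 5 of the 7 members that had more than 3 UMIs in either state lay above a log2 ratio of 1 in *Myog*+ over *Myf5*-only cells, *Actc1*, *Myl1*, *Tnni1*, *Ttn* and *Tnnt1*, and without the richest cell 2 did, *Actc1* and *Myl1*. The median log2 ratio was 2.31 over these 7 and 2.33 over all 9, and 1.26 when states at 0 were set to the limit of 3 counts. Without the richest cell the median over all 9 was 0.68. Of the 6 members with at least 10 UMIs in both states together, 4 were above 1, and none was below -1. Over the 3980 genes with that many UMIs, percent called higher was 4.97 and percent called lower 15.0, with a median log2 ratio of -0.07. Without the richest cell 5 members had at least 10 UMIs, of which 1 was above 1, and percent called higher over all such genes was 4.88. The states were part of how the genes were chosen, so nothing is read from these counts.

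Between *Myod1*+ *Myog*- and *Myf5*-only cells there was little to see. None of the 9 members lay above a log2 ratio of 1, and 5 of them had at least 10 UMIs. Over the 5223 genes with that many UMIs percent called higher was 3.79. *Myl1*, on 4 against 1 UMIs, was at 0.99 (-0.67 to 1.74), *Ttn* at 0.46 (-0.07 to 1.001), *Mrln* at 0.21 (-0.45 to 0.86), *Tnnt1* at 0.20 (-0.15 to 0.56), *Des* at -0.24 (-1.24 to 0.76) and *Actc1* at -0.56 (-1.77 to 0.70). The median was 0.00 over all 9, of which *Tnnc1* and *Myl4* were at 0 in both states, and 0.20 over the 6 members with more than 3 UMIs in either state. Every one of these intervals included 0. In *Myog*+ over *Myod1*+ *Myog*- cells, *Actc1* was at 5.29 (4.32 to 6.24), *Myl1* at 3.57 (2.32 to 4.66), *Ttn* at 1.85 (1.36 to 2.34), *Tnnt1* at 0.90 (0.48 to 1.30), *Des* at 0.93 (-0.38 to 2.15) and *Mrln* at -0.12 (-1.15 to 0.83). Without the richest cell *Actc1* was at 4.09 (3.04 to 5.12), *Myl1* at 1.46 (-0.40 to 3.003), *Ttn* at 0.20 (-0.56 to 0.91), *Tnnt1* at 0.48 (0.0023 to 0.94), *Des* at 0.88 (-0.50 to 2.15) and *Mrln* at -0.26 (-1.39 to 0.76), and the median over all 9 moved from 2.53 to 0.88. The intervals of *Actc1* and *Tnnt1* then lay above 0, and those of *Myl1*, *Ttn*, *Des* and *Mrln* included 0. The states were part of how the genes were chosen, so this is a description only. The comparison of *Myog*+ with *Myod1*+ *Myog*- cells shares its *Myog*+ cells with the first one. Its median of 2.53 was the ratio of *Myl4* and *Tnnc1*, each on 3 against 0 UMIs. Over the 7 members with more than 3 UMIs in either state the median was 1.85, and 1.25 when states at 0 were set to 3 counts. Of the 6 members with at least 10 UMIs, 3 were above 1, and percent called higher over the 3934 such genes was 4.7.

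**Figure D4:**
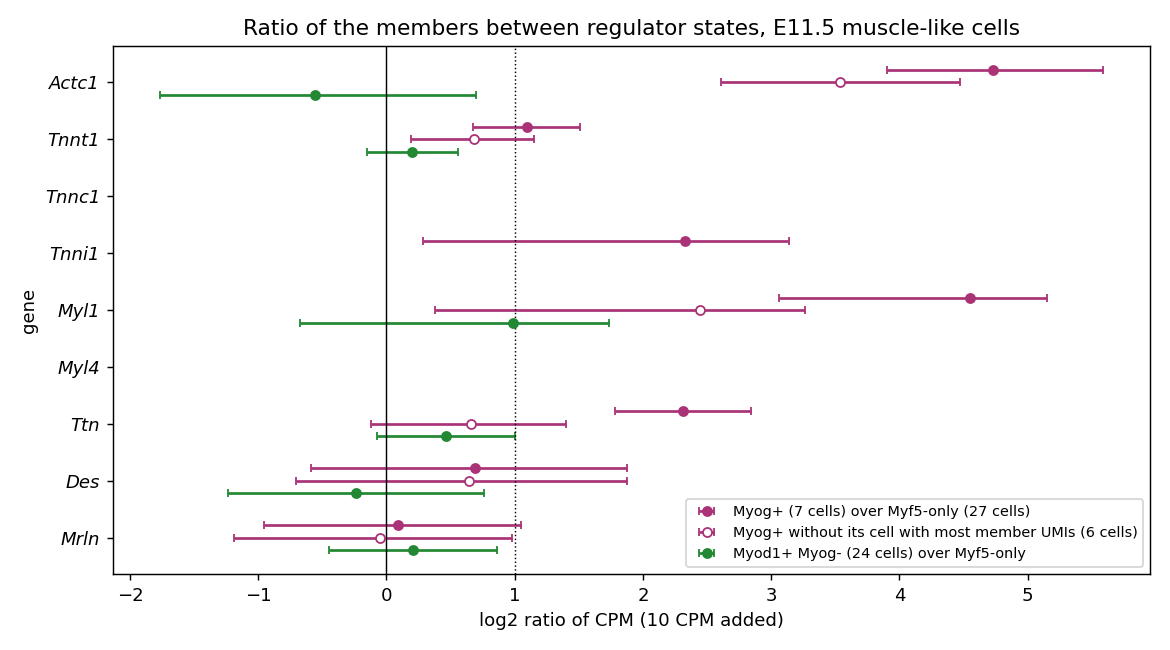
Log2 ratios of the members between states of the E11.5 muscle-like cells (x axis, 10 CPM added, bars are exact 95% counting intervals; the dotted line marks 1), for *Myog*+ over *Myf5*-only cells with all 7 and with 6 *Myog*+ cells and for *Myod1*+ *Myog*- over *Myf5*-only cells. Genes with at most 3 UMIs in both groups have no point; *Actc1* (4.73, and 3.54 without the richest cell) and *Myl1* (4.55 and 2.45) lie farthest to the right.

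The members can be ranked by the level in *Myf5*-only cells relative to that in *Myog*+ cells, which is not an order in time. It was 93.6% (46.4 to 204) for *Mrln*, 58.8% (23.7 to 159) for *Des*, 46.4% (34.6 to 62.4) for *Tnnt1*, 19.5% (13.3 to 28.3) for *Ttn*, 3.13% (1.45 to 6.01) for *Actc1* and 1.40% (0.0339 to 8.71) for *Myl1*. The first 3 did not differ beyond their intervals, *Tnnt1* lay above *Ttn*, *Ttn* above *Actc1*, and *Actc1* and *Myl1* did not differ. *Tnni1*, at 7.35% (0.149 to 74.3), could not be placed, and *Myl4* and *Tnnc1*, both at 0% with an upper bound of 71.2%, could not either. Without the richest cell *Ttn* stood at 62.3% (36.7 to 109) beside *Tnnt1* at 62.0% (44.6 to 87.2), so the step between these 2 genes rested on that cell. *Actc1* was then at 7.22% (3.20 to 14.8), still apart from *Tnnt1*, *Ttn*, *Des* (61.0%, 23.8 to 175) and *Mrln* (104%, 48.9 to 246), and *Myl1* at 6.68% (0.136 to 67.5) could no longer be separated from them.

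Co-detection within single cells gave a nested picture. *Tnnt1* was present in 99 of the 119 cells, *Mrln* in 66, *Ttn* in 65, *Des* in 51, *Actc1* in 26, *Myl1* in 12, *Tnni1* in 3, *Myl4* in 2 and *Tnnc1* in 1. All 26 cells with *Actc1*, all 51 with *Des*, all 12 with *Myl1*, 65 of the 66 with *Mrln* and 63 of the 65 with *Ttn* also had *Tnnt1*. Of the 12 cells with *Myl1*, 11 had *Mrln*, 9 had *Ttn* and 7 had *Actc1*, whereas of the 26 cells with *Actc1*, 7 had *Myl1*. The cells with *Myl4* and with *Tnnc1* also had *Tnnt1*, *Ttn*, *Actc1*, *Myl1*, *Mrln* and *Tnni1*. The genes seen in most cells were also those with most UMIs, and the part of abundance in this nesting was not tested.

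The regulators were distributed differently over the same cells. Of the 39 cells with *Myf5*, 36 had *Tnnt1*, 28 *Mrln*, 26 *Ttn*, 13 *Des*, 9 *Actc1* and 3 *Myl1*. Of the 30 cells with *Myod1*, 30 had *Tnnt1*, 24 *Mrln*, 22 *Ttn*, 13 *Des*, 12 *Actc1* and 8 *Myl1*. Of the 7 cells with *Myog*, all had *Tnnt1*, 6 each had *Mrln*, *Ttn* and *Actc1*, 5 had *Des* and 4 *Myl1*. *Myod1* was present in 6 of those 7 and *Myf5* in 1. Within the cluster *Actc1* and *Myl1* were therefore seen in a small share of *Myf5* cells and a larger share of *Myog* cells, while *Tnnt1* was in nearly all of both. Over all E11.5 cells 13 had a *Myog* UMI, of which 8 had *Tnnt1*, 7 *Ttn*, 7 *Mrln*, 6 *Actc1*, 5 *Des* and 4 *Myl1*, so the *Myog* cells outside the cluster added none with *Actc1*, *Des* or *Myl1*. Among the cells with none of the regulators, 42 of 61 still held at least 2 members and 16 held none, and 9 of the 61 had an *Epcam* UMI.

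**Figure D5:**
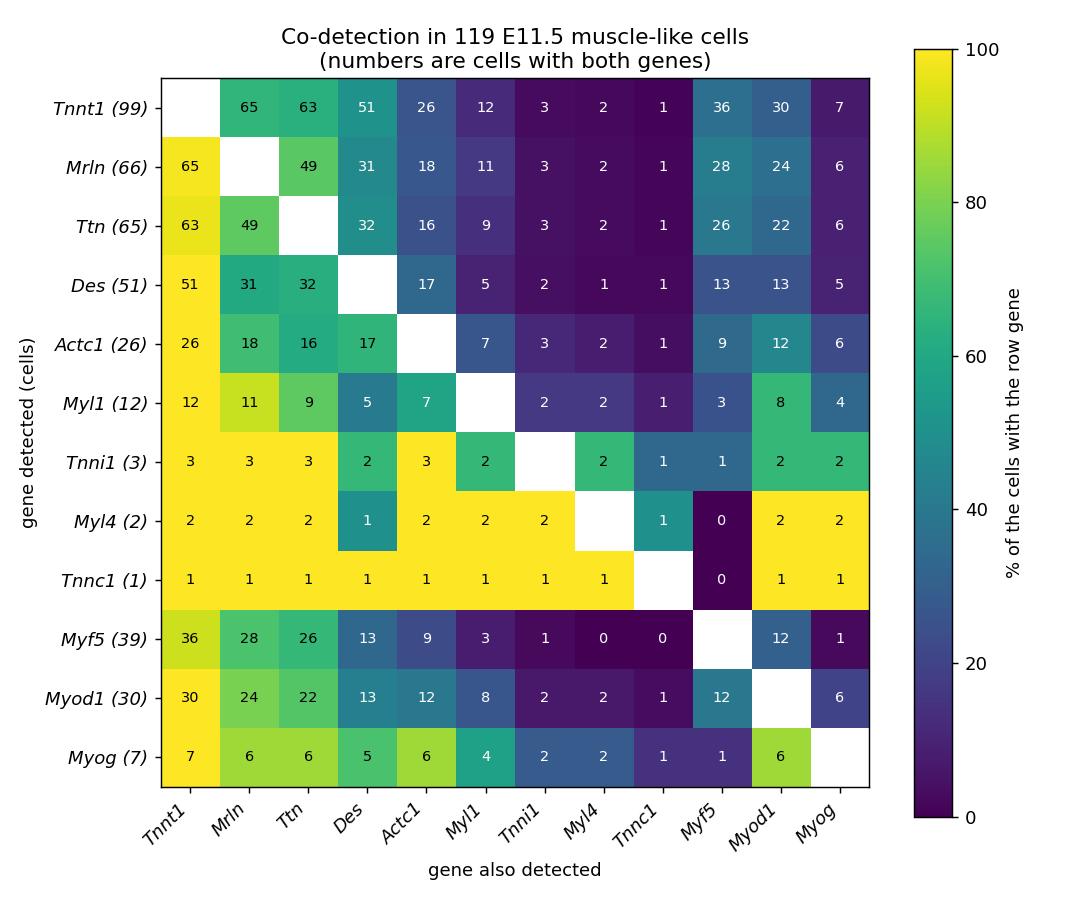
Co-detection in the 119 E11.5 muscle-like cells: each row is a gene with its number of positive cells, and each square gives the number of those cells that also had the column gene (colour, percent of the row's cells). The *Tnnt1* column is nearly full, and the *Myl4* and *Tnnc1* rows, which rest on 2 cells and 1 cell, are filled for *Actc1*, *Myl1*, *Myod1* and *Myog*.

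The wider contractile programme was read from gene lists, each compared between *Myog*+ and *Myf5*-only cells and described by the members with at least 10 UMIs. For all these lists, percent called over all genes with that many UMIs was 4.97 higher and 15.0 lower. Of 16 other thin filament genes 5 had at least 10 UMIs, and 3 were above a log2 ratio of 1 and none below -1. They were *Tnnc2*, the fast troponin C, at 4.26 (2.73 to 4.87), *Neb*, nebulin, which sets thin filament length, at 2.51 (1.53 to 3.48), and *Tpm2*, a tropomyosin, at 1.73 (1.16 to 2.29). *Tpm3*, at -0.16 (-0.92 to 0.55), was the lowest. Without the richest cell *Tnnc2* had 1 UMI and *Neb* was at 1.004 (-0.39 to 2.29), and 1 of 4 genes was above 1. Percent called higher over all genes was then 4.88.

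Of 19 other thick filament genes only *Mylpf*, the fast regulatory light chain, had 10 UMIs, with 42 in *Myog*+ and 0 in *Myf5*-only cells. The richest cell held 34 of the 42 and all 9 UMIs of *Myh3*, embryonic myosin heavy chain. None of 20 Z disc and M band genes had 10 UMIs, and their sum was 13 UMIs (207 CPM, 110 to 353) in *Myog*+ and 15 (70.1 CPM, 39.3 to 116) in *Myf5*-only cells. The richest cell held 7 of the 13, and without it the sum was at 105 CPM, a log2 ratio of 0.52 (-0.92 to 1.83). Of 17 genes of excitation and calcium release 1 had 10 UMIs, *Atp2a2*, a calcium pump, at -0.27 (-1.74 to 1.04). Of 7 acetylcholine receptor genes it was *Rapsn*, which clusters the receptor, at 0.28 (-1.51 to 1.96). That list includes *Chrna1*, a marker used to name the cluster. Of 8 genes of fusion and adhesion 3 had 10 UMIs, with *Ncam1* at 1.32 (0.02 to 2.53), *Jam3* at 0.63 (-1.06 to 2.18) and *Cdh2*, an adhesion gene, at -1.03 (-2.68 to 0.50). *Ncam1* was at 0.38 (-1.29 to 1.90) when the richest cell was left out, and then none of the 3 was past 1 in either direction. The fusion genes *Mymk* and *Mymx* had 3 and 8 UMIs in *Myog*+ cells and 0 in *Myf5*-only cells, and 1 and 6 of these were in the richest cell.

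Of 14 regulators 10 had at least 10 UMIs, of which 3 were above 1 and 3 below -1, where percent called over all genes was 4.97 and 15.0, and *Myod1*, *Myog* and *Myf5* are among them by definition. The rest were *Mef2c*, a partner of the myogenic factors, at 3.25 (2.18 to 4.30), and the progenitor genes *Tbx1* at -1.71, with an interval that includes 0 (-3.10 to 0.39), and *Eya1*, with 0 UMIs in *Myog*+ and 15 in *Myf5*-only cells. *Mef2c* was at 1.97 (0.59 to 3.24) when the richest cell was left out. None of 10 cell cycle genes was past 1 in either direction, and their sum was 3704 CPM (3244 to 4212) in *Myog*+ and 3675 CPM (3422 to 3941) in *Myf5*-only cells. The richest cell held 2 of the 233 cell cycle UMIs of the *Myog*+ cells. *Cdkn1c*, an inhibitor of the cycle, was at 1.18 (0.88 to 1.49), and 52 of its 149 UMIs lay in that cell, without which it was at 0.71 (0.35 to 1.05) and no longer past 1.

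Across 16 groups of cells, the 3 states with a regulator and all named classes of at least 50 cells at the 3 stages, 10 other genes followed the mean of the members most closely among 2941 genes with at least 50 UMIs in the muscle-like cells. They were *Neb* (Pearson r 0.989), *Rbm24*, an RNA-binding splicing regulator of muscle (0.989), *Acta2* (0.947), *Nexn*, an actin-binding Z disc protein (0.942), *Ccdc141* (0.939), *Glipr2* (0.929), *Pycrl* (0.889), *Gamt*, an enzyme of creatine synthesis (0.887), *Klhl13* (0.885) and *Abracl* (0.878). The groups are not independent, since those of a stage share a library and the muscle-like class contains the 3 states. In the *Myog*+ group the richest cell held 163 of 296 member UMIs, 16 of 23 *Neb* UMIs and 24 of 70 *Acta2* UMIs. No r without that cell is given. The limit of 50 UMIs was set in the muscle-like cells, where the members are high, so a high r was favoured in advance and is a description only. *Neb* was at 77.8 CPM and *Rbm24* at 85.8 CPM in the muscle-like cells and at 0.817 and 1.78 CPM in the other E11.5 cells. A high r did not require such restriction, with *Pycrl* at 51.9 against 39.2 CPM and *Abracl* at 471 against 182 CPM.

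Outside the muscle-like cells at E11.5, each member was detected at low level and in its own way. *Des* had 168 UMIs in 153 cells. Of these, 61 fell in the mesenchymal cluster led by *Plagl1*, *Cited1* and *Foxf1*, at 7.17 CPM (5.49 to 9.21). It was lowest, at 1.94 CPM (1.30 to 2.79), in the mesenchymal cluster led by *Nr2f1*, *Emx2* and *Sox9*. The other mesenchymal clusters were at 4.19 CPM (2.23 to 7.17), 4.18 CPM (2.99 to 5.70) and 2.79 CPM (1.73 to 4.27). The intervals at 4.19 and 4.18 CPM overlapped that of the *Plagl1* cluster. *Tnnt1* had 194 UMIs in 147 cells, with its highest level, 26.2 CPM (15.0 to 42.5), in the 65 immune cells, where 12 cells held 16 UMIs. *Ttn* was at 14.2 CPM (7.76 to 23.8) in the erythroid cells, but 2 cells held its 14 UMIs, and 1 of the 139 erythroid cells had a regulator UMI and at least 2 members. Of 26 cells with a regulator UMI outside the muscle-like cluster, 7 held at least 2 members and 15 held none, and their summed level was 224 CPM (172 to 287).

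At E14.5 and E16.5 no cluster was named muscle, and the members were rare. Their UMIs numbered 198 at E14.5 and 270 at E16.5, against 1723 at E11.5. At least 2 members were found together in 6 and 8 cells, against 117, and a UMI of *Myf5*, *Myod1* or *Myog* in 6 and 9 cells, against 84. *Actc1* had 2 UMIs (0.0720 CPM, 0.00872 to 0.260) at E14.5 and 6 (0.150 CPM, 0.0550 to 0.326) at E16.5, and *Myl1* had 1 at each. The later stages were incisor buds and not whole mandibles, so fewer muscle cells in the dissected tissue and less RNA per cell cannot be told apart.

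What remained at the later stages lay in other lineages. *Tnnt1* was the most frequent, with 86 UMIs (3.10 CPM, 2.48 to 3.83) at E14.5 and 126 (3.15 CPM, 2.62 to 3.75) at E16.5, most of them in mesenchyme, 48 and 78. *Mrln* was found almost wholly in epithelium, with all 9 of its UMIs at E14.5 and 34 of 36 at E16.5, where its level was 2.17 CPM (1.504 to 3.04). *Ttn* had 18 of its 30 UMIs at E14.5 in 11 of the 129 immune cells, at 18.6 CPM (11.01 to 29.4), and 21 of its 31 at E16.5 in epithelium. *Myl4* had 31 and 28 UMIs, 20 and 14 of them in mesenchyme, in contrast to the 9 UMIs found in all E11.5 cells. *Des* had 7 and 3 UMIs. *Tnnc1* had 13 and 25 UMIs and *Tnni1* 19 and 14, spread over several classes. The 6 leading members were each lower in every later class than in the E11.5 muscle-like cells, *Tnnt1* for example reaching at most 19.8 CPM (6.43 to 46.2), in the 26 cells of smooth muscle and pericyte type at E16.5.

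A single E16.5 cell was an exception. It had 16846 UMIs and held 5 members, *Tnnt1* with 9 UMIs, *Actc1* with 5, *Mrln* with 2 and *Ttn* and *Des* with 1 each, together with 6 *Myod1* UMIs, 1 *Myf5* UMI and 40 *Acta2* UMIs. Its cluster was epithelial, but it had 0 UMIs of *Epcam* and *Krt14*. All of the 5 *Actc1* UMIs counted in E16.5 epithelium came from this cell.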

How the data were processed

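Single-cell libraries of wild-type NMRI mouse embryos were made with the Chromium 3' v3 kit. The deposited matrices hold raw UMI counts per gene and cell barcode, made by the authors with Cell Ranger 4.0.0 on mm10, 1 pooled matrix per stage. Every barcode carries the same suffix, so cells could not be tied to the labelled samples and each stage was treated as 1 sample with no test.

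Barcodes under 700 genes or over 20% mitochondrial UMIs were removed. The depth of the cells left was 864 to 75780 UMIs (E11.5), 1030 to 73783 (E14.5) and 1034 to 123785 (E16.5). Counts were normalised with sctransform 0.4.2 (Seurat 5.3.0, R 4.3.3) and clustered on 2000 variable genes and 20 principal components by the Leiden method at resolution 0.4 (leidenbase 0.1.32). The members and the myogenic regulators, 23 genes, were left out of the variable genes. A cluster was named where its marker score was at least 1, at least 3 markers were seen and its top 10 genes did not hold more markers of another class. That score was taken against the lowest cluster of the stage. A second score was taken against all other cells of the stage. A cluster in which at least a pair of classes reached 1 on the second score was clustered once more. These naming rules were set after the data were seen. Scrublet (scanpy 1.11.5) called 0, 0 and 2 doublets, so it did not work here and no cell was removed for it.

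Levels are summed UMIs per 1000000. Log2 ratios were taken after adding 10 CPM, and a ratio of at least 1 in size was counted as a call over genes with at least 10 UMIs in both groups together. The bounds of ratio intervals include the added 10 CPM, which limits how far they reach. No ratio is given where both groups had at most 3 UMIs. Exact Poisson, Clopper-Pearson and conditional binomial 95% intervals were computed with scipy 1.17.1 and tested on simulated data.

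The members, the lists and the comparisons were chosen with earlier results of these data known. Named genes are the members, the regulators, up to 3 genes with the largest and 1 with the smallest ratio in each of 12 lists, and the 10 genes most like the members. *Mymk*, *Mymx*, *Myh3* and the single cells described were chosen after their values were seen. Start regions came from RefSeq.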

Additional observations from a re-analysis of the deposited data

Results flagged for a closer look

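Of the E11.5 barcodes left out for few genes or a high mitochondrial share, 2135 in all, some held signal of the 9 genes. They had 43 UMIs of the members, at 24.6 CPM (17.8 to 33.1), and 5 of these barcodes had a UMI of *Myf5*, *Myod1* or *Myog*. The levels of the report do not include them.

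At E16.5, where no muscle cluster was found, 1 cell held 5 of the 9 genes together with 6 *Myod1* UMIs. No other cell of that stage held as many members.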

How the results depend on the processing

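No paired analysis was possible because the barcodes carry no sample, and leaving out each replicate was not run for the same reason. No ratio past 1 in size changed direction under the alternatives tried. The ratio of *Mrln*, near 0, was -0.05 without the *Myog*+ cell with most member UMIs, -0.08 with the members among the variable genes and -0.24 over all E11.5 cells. That of *Myl1* was above that of *Actc1* with 1 CPM added, with at least 2 regulator UMIs, with 200 genes per cell and with the reduced total. The share of member UMIs in the muscle-like cells was 64.4% when cells needed only 200 genes and any mitochondrial share was let in and 71.5% with the members among the variable genes. Their summed level was 1081 CPM at Leiden resolution 0.2, 1500 CPM after thinning, 1277 CPM with the top 5% of doublet scores left out, 1675 CPM without mitochondrial, ribosomal protein and haemoglobin genes in the total, and 1479 CPM as a mean over cells. The median log2 ratio of *Myog*+ over *Myf5*-only cells was 3.46 after thinning, 2.69 without the top 5% of doublet scores and 2.58 with the reduced total. As a mean over cells it was 2.83, with at least 2 regulator UMIs 2.72 and with 1 CPM added 3.51. It was lower, at 1.81, over all E11.5 cells, and 2.10 with the members among the variable genes. In the same order the median over *Myod1*+ *Myog*- cells was 3.46, 2.79, 2.93, 2.78, 2.72, 4.06, 1.74 and 2.16. After thinning, with at least 2 regulator UMIs and over all E11.5 cells, the median over *Myf5*-only cells was the ratio of *Myl4* and *Tnnc1*. With the reduced total, as a mean over cells and with 1 CPM added it was that of *Tnni1*. These genes had at most 4 UMIs in *Myog*+ cells, so such medians depend on the CPM added and give no size of a change of the set. Over all E11.5 cells *Tnnt1* was at 0.61 and the number of members above 1 was 4, and after thinning *Tnni1* was at 0.00. With at least 50 UMIs of a member, 3 members lay above a log2 ratio of 1 in place of 5. The share called over all genes is not given for these settings, so nothing is read from these counts. Further alternatives were chosen after seeing the data. Without the *Myog*+ cell with most member UMIs the level was 1035 CPM, the share 66.1%, the medians 0.68 and 0.88, and the count 2. Of the 5 members that then had at least 10 UMIs, 1 was above 1, *Myog*+ over *Myf5*-only cells. Percent called higher over the 3917 genes with that many UMIs was 4.88. Without cells holding an *Epcam* or *Sox10* UMI the level was 1463 CPM. *Myl4*, *Tnnc1* and *Tnni1* had 3, 3 and 4 UMIs in the 7 *Myog*+ cells.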
